A study of Mus musculus with 12 samples.

Results

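The integrated stress response genes described here are 10 of the 48526 genes counted: Atf4, Atf3, Ddit3, Ppp1r15a, Trib3, Chac1, Asns, Psat1, Gdf15 and Ddit4. They were chosen by name, with earlier results of these data known, and found by their Ensembl identifiers. The shares of all genes given beside their counts are therefore descriptions and no test of the set. All 10 had a row in each of the 12 libraries, and all 10 passed the filter on low counts in every comparison. Gdf15 and Chac1 passed it in some comparisons only through the group in which they were high. RNA came from intestinal epithelial cells, called whole intestine in the sample titles and taken from the proximal part of the small intestine per the extraction protocol, of 4 female mice aged 3 months, 2 controls and 2 animals in which Kat2a and Kat2b, genes of related lysine acetyltransferases, had been deleted (DKO, the labels' name for the double knockout). The DKO animals were injected with tamoxifen at 100 mg/kg on each of 4 days, the controls with the ethanol and corn oil vehicle only, and the epithelium was isolated in EDTA over 50 minutes 2 days after the last injection. Each animal gave an input library and a pulldown with each of the antibodies J2 and K1, which bind double-stranded RNA, so that there were 6 groups of 2 libraries. Deletion and tamoxifen changed together and cannot be told apart. The recombinase, its promoter and the alleles are not given in the sources used here, nor is it given whether the control animals carried them.

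The integrated stress response is the shared pathway by which cells answer unfolded protein, lack of amino acids, mitochondrial damage or double-stranded RNA. Its kinases, PERK (Eif2ak3), GCN2 (Eif2ak4), HRI (Eif2ak1) and PKR (Eif2ak2), the last of which is activated by double-stranded RNA, phosphorylate the translation initiation factor eIF2. Protein synthesis then falls in general, while the messenger RNA of the transcription factor ATF4 is translated more, so that ATF4 protein can accumulate without more of its RNA. ATF4, often with a C/EBP partner, binds the C/EBP-ATF response element and raises genes for amino acid supply, for feedback on eIF2 and, under lasting stress, for cell death. In the intestinal epithelium the response is best known from its secretory cells, where unfolded protein is a frequent load.

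The response element was searched for as the letters TGATGNAA on either strand in the promoter windows of RefSeq genes (build GRCm38.p6, 250 bases before the start to 50 bases after it). It was found in 4 of the 10 genes, against 4.51% of the 27025 genes with such a window. The 3 windows in which the match lies before the start are printed because they carry a known binding motif of ATF4 in genes that were higher in DKO input. The 250 bases before the start are given 5′ to 3′ on the strand of the gene, with the match in capitals.
Atf3 (chr1:191183334-191183583, strand minus): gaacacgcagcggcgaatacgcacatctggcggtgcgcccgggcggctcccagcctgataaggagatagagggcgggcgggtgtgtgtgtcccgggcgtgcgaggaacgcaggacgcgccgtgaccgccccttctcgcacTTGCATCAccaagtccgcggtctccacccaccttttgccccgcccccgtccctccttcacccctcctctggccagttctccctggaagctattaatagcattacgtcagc
Chac1 (chr2:119350992-119351241, strand plus): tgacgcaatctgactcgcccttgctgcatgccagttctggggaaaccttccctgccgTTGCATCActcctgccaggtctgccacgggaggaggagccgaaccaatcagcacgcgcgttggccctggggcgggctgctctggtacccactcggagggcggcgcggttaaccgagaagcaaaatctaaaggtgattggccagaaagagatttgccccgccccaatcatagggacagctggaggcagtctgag
Asns (chr6:7693210-7693459, strand minus): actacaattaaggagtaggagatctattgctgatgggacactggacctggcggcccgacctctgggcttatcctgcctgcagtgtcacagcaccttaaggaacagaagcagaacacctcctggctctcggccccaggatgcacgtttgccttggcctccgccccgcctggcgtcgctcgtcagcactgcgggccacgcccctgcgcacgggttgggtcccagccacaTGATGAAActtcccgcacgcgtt
In Atf3 the match lies at bases -110 to -103 from the start and in Chac1 at bases -193 to -186, in each case as the letters TTGCATCA of the opposite strand. In Asns it lies at bases -23 to -16, as TGATGAAA on the strand of the gene. The match of Trib3 lies after the RefSeq start, at bases 14 to 21, and is shown with its flanks.
Trib3 (chr2:152344029-152344056, strand minus): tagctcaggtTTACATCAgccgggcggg
The windows of Atf4, Ddit3, Ppp1r15a, Psat1, Gdf15 and Ddit4 held no match to these letters. Among the neighbouring lists described further on, a match was found in 5 of 12 aminoacyl-tRNA synthetases, 4 of 11 other regulators linked to ATF4, 3 of 10 genes of amino acid synthesis, 2 of 6 amino acid transporters, 1 of 12 eIF2 kinase and cofactor genes, 1 of 14 chaperones of the endoplasmic reticulum and 0 of 13 immediate-early genes. A match is a description of the sequence, not a site shown to be bound. All positions are counted from RefSeq starts, and the GENCODE M21 annotation used for names differs for some genes. There Trib3 starts at 152344032, with its match before that start, and Asns at 7693254, with its match after it. Atf3 starts there at 191218039, so that its printed window lies inside the gene.

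The libraries differed in depth in a way that followed genotype. Reads counted in genes came to between 10307281 and 11474107 in the input libraries and between 13308021 and 16139531 in the control pulldowns, but to between 2220291 and 5826361 in the DKO pulldowns. In the DKO pulldowns the 10 most abundant genes took 24.7% to 33.6% of the gene counts (6.57% to 7.67% in control pulldowns) and mitochondrial genes 8.76% to 18.6% (1.4% to 2.77%). The targeted genes fell in input. Kat2b had 359 and 343 reads in the control animals and 118 and 114 in the DKO animals, a log2 fold change of -1.51, and Kat2a had 222 and 228 against 84 and 148, a log2 fold change of -0.88. All 10 epithelial markers were abundant in input, with 1073 to 26186 reads each. Of the leukocyte markers Ptprc had 184 to 333 reads in input, and no stromal, endothelial or muscle marker exceeded 61 reads. In DKO input, where 18.8% of all genes tested rose and 17.1% fell, 10 of 12 proliferation markers, 4 of 8 stem cell markers and 4 of 14 enterocyte markers fell and none of these rose. Among enteroendocrine markers 4 of 8 rose and among goblet markers 3 of 8, with no falls, among Paneth markers 2 of 8 rose and 1 fell, and among the 12 leukocyte markers tested 2 rose and 5 fell. The part of these differences in the results was not tested. In such bulk samples fewer cells of a type and less RNA per cell cannot be told apart.

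In input RNA, which stands for the abundance of the transcripts, 8 of the 10 genes rose in DKO and none fell. The rise was 8.68-fold for Gdf15, between 4.02-fold and 4.55-fold for Ppp1r15a and Chac1, and between 1.73-fold and 2.47-fold for Atf3, Psat1, Ddit4, Asns and Trib3. Atf4 itself and Ddit3 did not pass the test. Of the 15088 genes tested, 35.9% were called, 18.8% higher and 17.1% lower, so that a called gene was common in this comparison. Of all calls 52.4% were higher, a share that was 42.1% with library totals in place of TMM scaling. The median log2 fold change was 1.21 over the 10 genes and 0.00 over all genes tested. Calls here and in what follows mean a Benjamini-Hochberg adjusted p under 0.05 in edgeR's quasi-likelihood test, and each log2 fold change is followed by its standard error (SE). The SE was taken as the absolute log2 fold change divided by the square root of the F statistic of that test. Levels are given as CPM, read counts relative to the library total after TMM scaling over the 12 libraries. The 2 animals of a group are the only replicates, so an adjusted p of a genotype comparison rests on the spread between these animals. In the fit the spread of a gene was moderated toward that of all genes tested. The reported fits of pulldown against input left out that pulldown and input came from the same animal. Their adjusted p therefore does not measure the spread of the paired differences between animals.

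Atf4, the transcription factor at the centre of the response, was the most abundant of the 10. Its input level was 98.0 and 85.3 CPM in the control animals and 114 and 104 CPM in the DKO animals. The DKO animals stood above the controls, but the gap was small against the spread, with a log2 fold change of 0.28 (SE 0.13, adjusted p = 0.124, 95% interval -0.02 to 0.58). Atf3, a transcription factor of the same family that is raised by ATF4, was at 14.7 and 12.8 CPM in control and at 33.4 and 32.8 CPM in DKO. The groups lay far apart relative to the spread within them, and Atf3 rose by 1.31 (SE 0.14, adjusted p = 0.000546). Ddit3, which encodes the cell death factor CHOP, was at 9.69 and 10.9 CPM in control and at 12.3 and 9.54 CPM in DKO. Its groups overlapped, and its log2 fold change of 0.12 (SE 0.20, adjusted p = 0.672, 95% interval -0.35 to 0.59) did not pass and was -0.021 with library totals in place of TMM.

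Among the genes that act back on the pathway, Ppp1r15a (GADD34) encodes the subunit that directs protein phosphatase 1 to eIF2 and so ends the response. Its level was 3.73 and 2.73 CPM in control against 16.2 and 12.4 CPM in DKO, a rise of 2.19 (SE 0.25, adjusted p = 0.000751). Both DKO values lay well above both control values. Trib3, a pseudokinase that restrains ATF4 and CHOP, stood at 9.69 and 13.9 CPM in control and at 23.3 and 16.7 CPM in DKO. The groups did not overlap, but DKO animal 2 was close to control animal 2, and the rise of 0.79 (SE 0.23, adjusted p = 0.0336) was lost without control animal 1 (0.55, adjusted p = 0.155), without DKO animal 1 (0.54, adjusted p = 0.118) and with library totals in place of TMM (0.65, adjusted p = 0.0640). Chac1, an enzyme that breaks down glutathione, rested on few reads, 11 and 8 in control and 31 and 42 in DKO. In CPM this was 0.874 and 0.576 against 2.58 and 3.08, a rise of 2.01 (SE 0.36, adjusted p = 0.00460). Chac1 passed the filter here only with the DKO libraries counted, so that it could enter the test as a rise only.

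Among the 10, the genes of amino acid synthesis, Asns and Psat1, were higher as well. Asns, asparagine synthetase, was at 18.2 and 11.9 CPM in control and at 22.5 and 30.7 CPM in DKO. The lowest DKO value lay close to the highest control value, and the rise of 0.86 (SE 0.24, adjusted p = 0.0256) was lost without control animal 2 (0.58, adjusted p = 0.102), without DKO animal 2 (0.62, adjusted p = 0.0898) and with library totals (0.74, adjusted p = 0.0759). Psat1, the aminotransferase of serine synthesis, was at 5.48 and 4.61 CPM in control and at 8.41 and 15.3 CPM in DKO, a rise of 1.28 (SE 0.31, adjusted p = 0.0161) in which DKO animal 2 stood well above DKO animal 1. Without DKO animal 2 the rise was 0.77 and was still called. Gdf15 (chr8:70629393-70632456, strand minus, GRCm38, 3 exon blocks) encodes a secreted hormone of stressed cells that acts on the brainstem to lower food intake. It had 11 and 23 reads in the control animals and 146 and 131 in the DKO animals, or 0.874 and 1.65 CPM against 12.2 and 9.61 CPM. This rise of 3.12 (SE 0.32, adjusted p = 0.000508) was exceeded by 2.13% of all genes tested. Ddit4 (REDD1), an inhibitor of mTORC1 that is raised by stress, was at 9.22 and 11.1 CPM in control and at 25.6 and 18.1 CPM in DKO, a rise of 1.14 (SE 0.21, adjusted p = 0.00545).

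**Figure D1:**
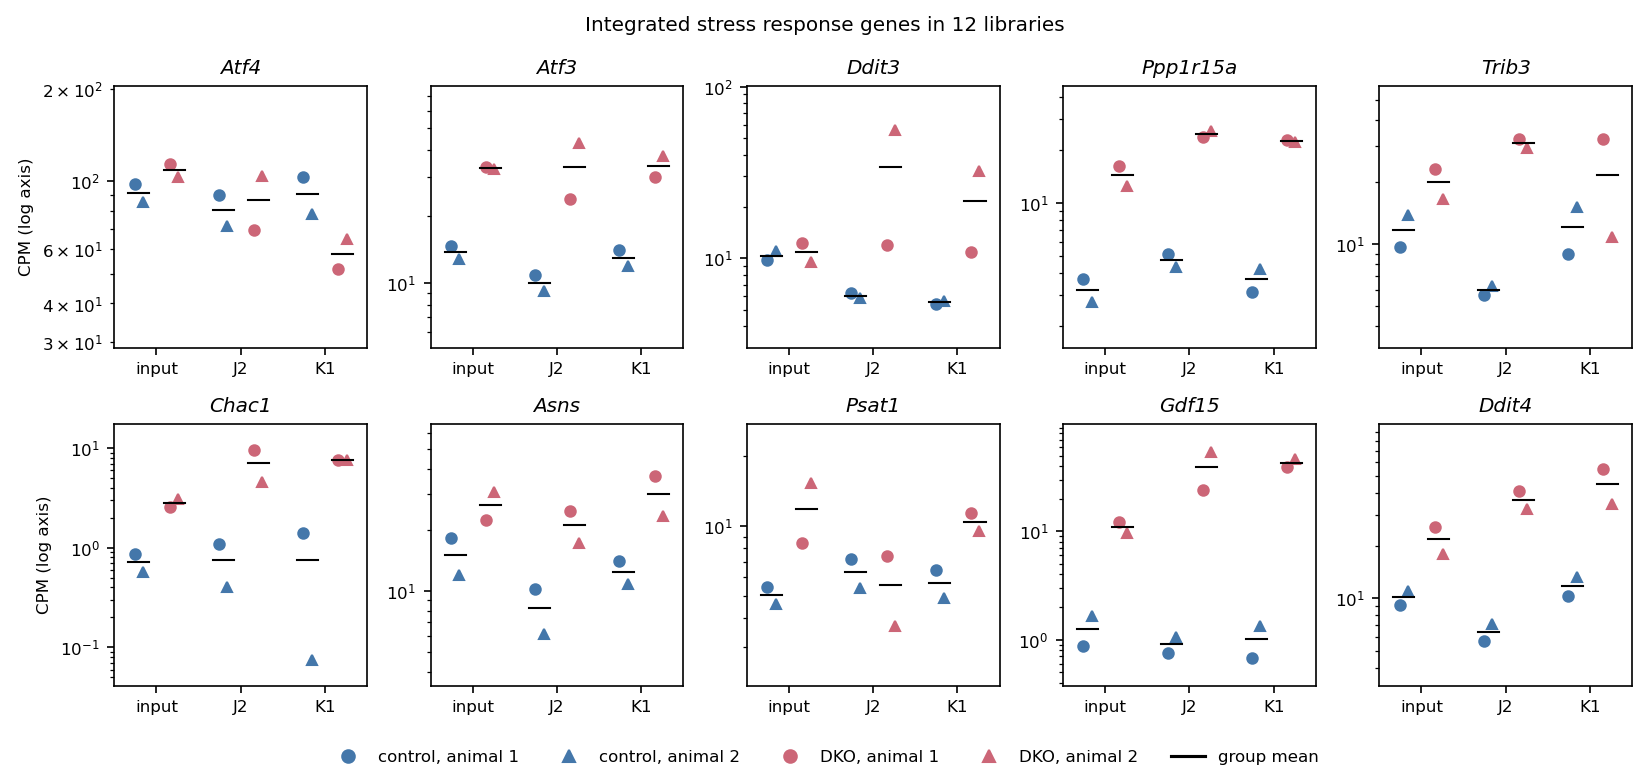
Level of each of the 10 genes in the 12 libraries, in CPM on a log axis whose range differs between panels, by kind of library (input, J2, K1). Points are animals (circle animal 1, triangle animal 2; blue control, red DKO) and bars are group means; in input the DKO points lie above the control points for 9 genes, with Ddit3 overlapping, and the mean of Gdf15 is 1.26 CPM in control and 10.9 CPM in DKO.

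In the plot of levels by library, 9 of the 10 genes had both DKO input values above both control values, which held for 34.0% of all genes tested; the opposite order held for 38.9% of all genes and for 0 of the 10. Leaving out any single animal kept 7 of the 8 calls, since each omission ended the call of either Trib3 or Asns. In a single fit of the 12 libraries, where the pulldowns share in the estimate of the spread, 4 of the 10 were called: Atf3, Ddit4, Gdf15 and Ppp1r15a. That fit called 1675 of 16582 genes.

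Since CPM follows transcript length, levels of different genes were compared as RPKM (CPM per kilobase of merged exons). In control input Atf4 stood first at 38.9 ± 3.78 RPKM (SD, n = 2), well above the rest. Atf3, Ddit3, Ddit4, Trib3 and Asns followed between 6.38 ± 0.620 and 5.51 ± 1.62 RPKM, and neighbours in this run did not differ beyond their spread. Psat1 at 1.19 ± 0.146 and Ppp1r15a at 1.1 ± 0.241 RPKM lay lower and within their spread of each other, and Gdf15 at 0.683 ± 0.298 and Chac1 at 0.443 ± 0.129 RPKM came last. In DKO input Atf4 still led at 46.0 ± 3.02 RPKM. Atf3 came next at 15.4 ± 0.190 RPKM, then Ddit4 at 12.4 ± 3.02, Asns at 9.72 ± 2.12 and Trib3 at 9.40 ± 2.21 RPKM, of which neighbours lay within their spread. Gdf15, at 5.88 ± 0.970 RPKM, stood beside Ddit3 at 6.38 ± 1.15 RPKM, a gene that it had been far below in control.

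In the J2 pulldowns 5 of the 10 genes rose in DKO and none fell, against 12.2% of 13181 genes called, 6.02% higher and 6.16% lower. The risers were Gdf15, Chac1, Ddit4, Ppp1r15a and Trib3, by between 5.36-fold and 45.8-fold. Of all calls 49.4% were higher, and 32.7% with library totals in place of TMM. The median log2 fold change was 2.43 over the 10 genes and 0.03 over all genes tested. The same 4 animals gave the input, J2 and K1 libraries, so the comparisons are not independent of each other. Gdf15 had few control reads in J2 (11 and 13) and K1 (11 and 18), as had Chac1 (16 and 5, 23 and 1). Both passed the filter in these comparisons only with the DKO libraries counted, so that they could enter as rises only.

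In the J2 libraries Gdf15 had 11 and 13 reads in the controls against 95 and 176 in the DKO animals, which is 0.754 and 1.05 CPM against 24.2 and 54.1 CPM. The log2 fold change was 5.52 (SE 0.66, adjusted p = 0.0287), and 0.615% of all genes had a larger one. Ddit4 stood at 5.69 and 7.12 CPM in control and at 41.0 and 32.3 CPM in DKO, a rise of 2.57 (SE 0.36, adjusted p = 0.0287). Ppp1r15a, at 5.14 and 4.37 CPM against 23.7 and 25.5 CPM, rose by 2.43 (SE 0.39, adjusted p = 0.0307). In each of these the DKO values were several times the control values and close to each other except for Gdf15. Trib3 was at 5.69 and 6.31 CPM in control and at 32.6 and 29.2 CPM in DKO, a rise of 2.42 (SE 0.36, adjusted p = 0.0299). Chac1 had 16 and 5 reads against 38 and 15, that is 1.1 and 0.404 CPM against 9.68 and 4.61 CPM, and rose by 3.25 (SE 0.70, adjusted p = 0.0442). Without control animal 1 the log2 fold changes of Ppp1r15a, Trib3, Chac1 and Ddit4 were 2.50, 2.30, 4.08 and 2.37 with adjusted p of 0.322, 0.358, 0.222 and 0.327, and without control animal 2 they were 2.25, 2.43, 2.66 and 2.67 with adjusted p of 0.381, 0.314, 0.464 and 0.238. Gdf15 was called without any single animal, at 4.80 to 5.98. With library totals Ppp1r15a (2.38, adjusted p = 0.0598) and Chac1 (3.07, adjusted p = 0.0619) lost their calls.

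The other 5 genes did not pass in J2. Atf3 stood at 10.9 and 9.22 CPM in control and at 23.9 and 43.1 CPM in DKO, a log2 fold change of 1.82 (SE 0.46, adjusted p = 0.0597). Asns was at 10.3 and 6.15 CPM against 25.0 and 17.2 CPM, a log2 fold change of 1.41 (SE 0.44, adjusted p = 0.0884). Neither overlapped between groups. Ddit3 was even in control, at 6.24 and 5.82 CPM, but uneven in DKO, at 12 CPM in animal 1 (47 reads) and 56.0 CPM in animal 2 (182 reads). Its log2 fold change of 2.60 (SE 0.81, adjusted p = 0.0855) was 3.29 without DKO animal 1 and 1.05 without DKO animal 2, and it was called in both of these fits. Without DKO animal 1 and without DKO animal 2 alike, where only the control pair gives the spread, Atf3 (2.17 and 1.31) and Asns (1.14 and 1.65) were called too, and 8 of the 10 genes passed. Calls rose in general in these fits, to 8635 of 14647 genes tested without DKO animal 1 and 7726 of 14312 without DKO animal 2. With the replicate number as a block 7 passed, the additional ones being Atf3 (1.74, adjusted p = 0.0374) and Ddit3 (2.18, adjusted p = 0.0138). That fit called 2262 of 13181 genes. DESeq2, with 2884 genes called, also called Atf3 (1.86, adjusted p = 0.0130) and Ddit3 (2.63, adjusted p = 0.00322). So did edgeR without the filter on low counts, with 4273 of 25232 genes called (1.61 and 2.36, adjusted p of 0.00837 and 6.49e-05). The fit of the 12 libraries, with 5984 of 16582 genes called, called Atf3 (1.73), Ddit3 (2.48) and Asns (1.36). Psat1 (-0.14, SE 0.51, adjusted p = 0.861) and Atf4 (0.18, SE 0.40, adjusted p = 0.769) had overlapping groups.

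In the K1 pulldowns 7 of the 10 genes rose in DKO and none fell, against 27.1% of 12888 genes called, 13.2% higher and 13.9% lower. They were Gdf15, Chac1, Ppp1r15a, Ddit3, Ddit4, Atf3 and Asns, by between 2.77-fold and 49.0-fold. Of all calls 48.6% were higher, and 27.4% with library totals in place of TMM. The median log2 fold change was 1.84 over the 10 genes and -0.02 over all genes tested.

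Gdf15 again stood furthest apart, at 0.678 and 1.34 CPM in control and at 39.4 and 46.6 CPM in DKO. The rise was 5.62 (SE 0.43, adjusted p = 0.00168). Ppp1r15a was at 3.14 and 4.25 CPM against 22.8 and 22.2 CPM, a rise of 2.80 (SE 0.35, adjusted p = 0.00336). Ddit4 was at 10.4 and 13.3 CPM against 55.3 and 34.8 CPM, a rise of 2.12 (SE 0.31, adjusted p = 0.00489). The DKO values of these 3 genes lay far above the control values, and each was called without any single animal. Atf3, at 14.1 and 12 CPM against 30.1 and 37.5 CPM, rose by 1.57 (SE 0.31, adjusted p = 0.0129). Asns, at 14.0 and 10.9 CPM against 37.0 and 23.5 CPM, rose by 1.47 (SE 0.32, adjusted p = 0.0171). Both calls were lost without control animal 1 (1.69 and 1.66, adjusted p of 0.0716 and 0.0870) and without control animal 2 (1.42 and 1.25, adjusted p of 0.138 and 0.216). Ddit3 showed the unevenness seen in J2, with 5.42 and 5.66 CPM in control, 10.9 CPM in DKO animal 1 (46 reads) and 32.1 CPM in DKO animal 2 (71 reads). Its rise of 2.14 (SE 0.56, adjusted p = 0.0292) was 2.78 without DKO animal 1 and 1.14 without DKO animal 2, and lost its call with library totals (1.83, adjusted p = 0.0579). Chac1 was high in both DKO animals, at 7.60 and 7.69 CPM (32 and 17 reads), but had 23 reads in control animal 1 and 1 read in control animal 2. Its rise of 3.46 (SE 0.91, adjusted p = 0.0301) was 2.56 without control animal 2 and no longer called (adjusted p = 0.131), and 6.54 without control animal 1.

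For Trib3, Psat1 and Atf4 the K1 pulldowns gave no call. Trib3 had 137 reads in DKO animal 1 and 24 in DKO animal 2, that is 32.5 and 10.9 CPM, against 9.0 and 15.3 CPM in control. The groups overlapped, with a log2 fold change of 1.04 (SE 0.48, adjusted p = 0.149) that was 0.10 without DKO animal 1 and 1.59, with a call, without DKO animal 2. Psat1 was at 6.47 and 4.92 CPM in control and at 11.4 and 9.49 CPM in DKO, a log2 fold change of 1.06 (SE 0.38, adjusted p = 0.0765). Without DKO animal 2 it was called, at 1.15 (adjusted p = 0.0189). Atf4 had both DKO values below both control values, an order found in K1 for 42.3% of all genes tested, at 51.7 and 64.7 CPM against 103 and 78.5 CPM, a log2 fold change of -0.44 (SE 0.30, adjusted p = 0.299).

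**Figure D2:**
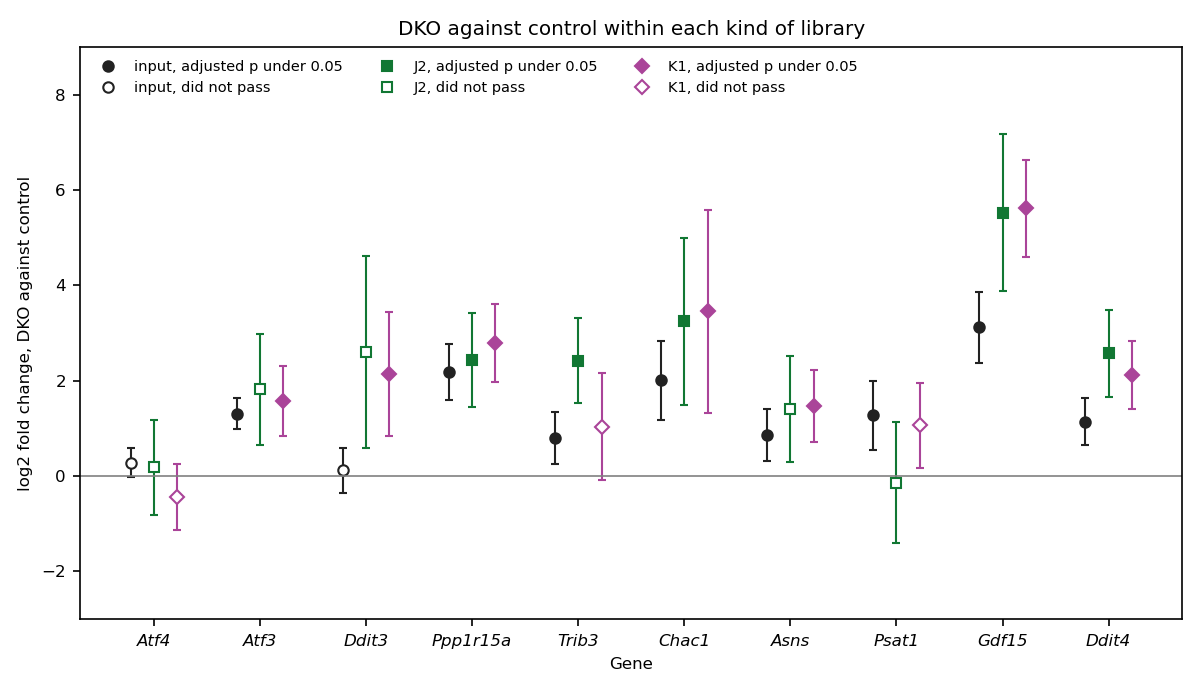
Log2 fold change of each gene in DKO against control within input (black circles), J2 (green squares) and K1 (purple diamonds), with 95% intervals of the edgeR fit and filled symbols for an adjusted p under 0.05. Gdf15 is the highest gene in each kind of library, at 3.12, 5.52 and 5.62, and the intervals of Atf4 include 0 in all 3.

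As the plot of fold changes by kind of library shows, 4 of the 10 genes were called higher in input, J2 and K1 alike: Ppp1r15a, Chac1, Gdf15 and Ddit4. Another 3 (Atf3, Trib3 and Asns) were called in 2 kinds of library, and Psat1 and Ddit3 in 1 each. Of all genes tested 18.8% were called higher in input, 6.02% in J2 and 13.2% in K1. The share of all genes called in several kinds at once was not counted, so these counts have no background share beside them. Non-overlapping groups with DKO above control were found for 8 of the 10 genes in J2 and for 8 in K1, against 29.6% and 24.9% of all genes tested. The DKO pulldowns differed from the control pulldowns in more than these genes. Summed stromal, endothelial and muscle markers were at 38.8 to 185 CPM in DKO J2 against 4.94 to 24 CPM in control J2, and at 84.5 to 215 against 4.99 to 43.3 CPM in K1, with 2 of 12 such markers at 0 in both libraries of each J2 group. In J2, summed enterocyte markers came to 6519 and 37922 CPM in the DKO libraries and to 28635 to 31092 CPM in the control libraries. The part of these differences, and of the shallower DKO pulldowns, in the results was not tested beyond a fit with counts thinned to the lowest library total. In it 4 of the 10 genes were called in J2 (all but Chac1 of the 5, which was at 2.83 with an adjusted p of 0.0772) and 7 in K1. Over all genes the thinned fits called 1149 of 10345 in J2 and 2476 of 9965 in K1.

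Whether the transcripts of a gene were recovered with the antibodies more or less than their abundance would give was measured as pulldown against input within a genotype. Of the 10 genes, 7 had a log2 fold change under 0 in J2 of the control animals, down to -0.97. Trib3 was lower (log2 fold change -0.97, SE 0.29, adjusted p = 0.0363), and that was the single call among the 10 in J2, where 29.8% of 15923 genes were called (15.2% higher, 14.6% lower). By animal, the log2 level of Trib3 in J2 minus input was -0.75 and -1.11. The call was lost without control animal 1 (-1.12, adjusted p = 0.434), without control animal 2 (-0.74, adjusted p = 0.630), in the fit of the 12 libraries (-0.98, adjusted p = 0.119) and without the filter on low counts (-0.91, adjusted p = 0.0549). Asns (-0.87), Ddit3 (-0.77), Ddit4 (-0.66) and Atf3 (-0.45) did not pass and were called lower without DKO animal 1 and without DKO animal 2, fits in which 10139 of 16924 and 9911 of 16376 genes were called, and Ddit4 also with library totals (-1.04, adjusted p = 0.0469). In control K1 edgeR called 0 of the 10 and DESeq2 also 0, with 1 under an unadjusted p of 0.05, while 39.8% of 15908 genes were called (19.7% higher, 20.1% lower). That gene was Ddit3, at -0.82 and -0.93 by animal and -0.98 in the fit (SE 0.40, adjusted p = 0.0758), and with the animal as a block it was called lower (-0.97, adjusted p = 0.0264). The median over the 10 genes was -0.47 in J2 and -0.07 in K1, beside -0.07 and 0.00 over all genes.

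In DKO animals Gdf15 was enriched over input in both pulldowns. Its log2 level in J2 minus input was 0.98 and 2.47 in the 2 animals, and in K1 minus input 1.68 and 2.25. The fits gave 1.87 in J2 (SE 0.43, adjusted p = 0.0188), the single call among the 10 against 25.7% of all genes (12.2% higher, 13.4% lower), and 1.90 in K1 (SE 0.31, adjusted p = 0.00165). The J2 call was lost without control animal 1 (1.84, adjusted p = 0.0779) and without control animal 2 (1.73, adjusted p = 0.0903), with library totals (1.71, adjusted p = 0.0859) and after thinning (1.67, adjusted p = 0.0866), and the value was 1.02 without DKO animal 2. After thinning Psat1 was called lower in its place (-1.63, adjusted p = 0.0345). In K1 35.6% of all genes were called, 14.6% higher and 21% lower, and 3 of the 10: Gdf15, Ddit4 and Atf4. Ddit4 was enriched at 1.11 and 0.94 by animal and 0.98 in the fit (SE 0.27, adjusted p = 0.0190). Atf4 was depleted at -1.13 and -0.68 by animal and -0.99 in the fit (SE 0.24, adjusted p = 0.0104). Neither call held without control animal 1 (0.95 and -1.01, adjusted p of 0.0763 and 0.0544) or control animal 2 (0.96 and -1.0, adjusted p of 0.0726 and 0.0556), and that of Ddit4 was also lost without DKO animal 1 (0.79, adjusted p = 0.0597) and with library totals (0.65, adjusted p = 0.0588). Chac1 stood at 1.34 in K1 (adjusted p = 0.120) and was called with the animal as a block (1.36, adjusted p = 0.0400). Library totals in place of TMM lowered the share of higher calls among all calls from 51.1% to 34.6% in control J2, from 47.6% to 21.1% in DKO J2, from 49.6% to 35.9% in control K1 and from 41.1% to 22.3% in DKO K1. The median over the 10 genes was 0.72 in DKO J2 and 0.35 in DKO K1, beside 0.10 and -0.14 over all genes.

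**Figure D3:**
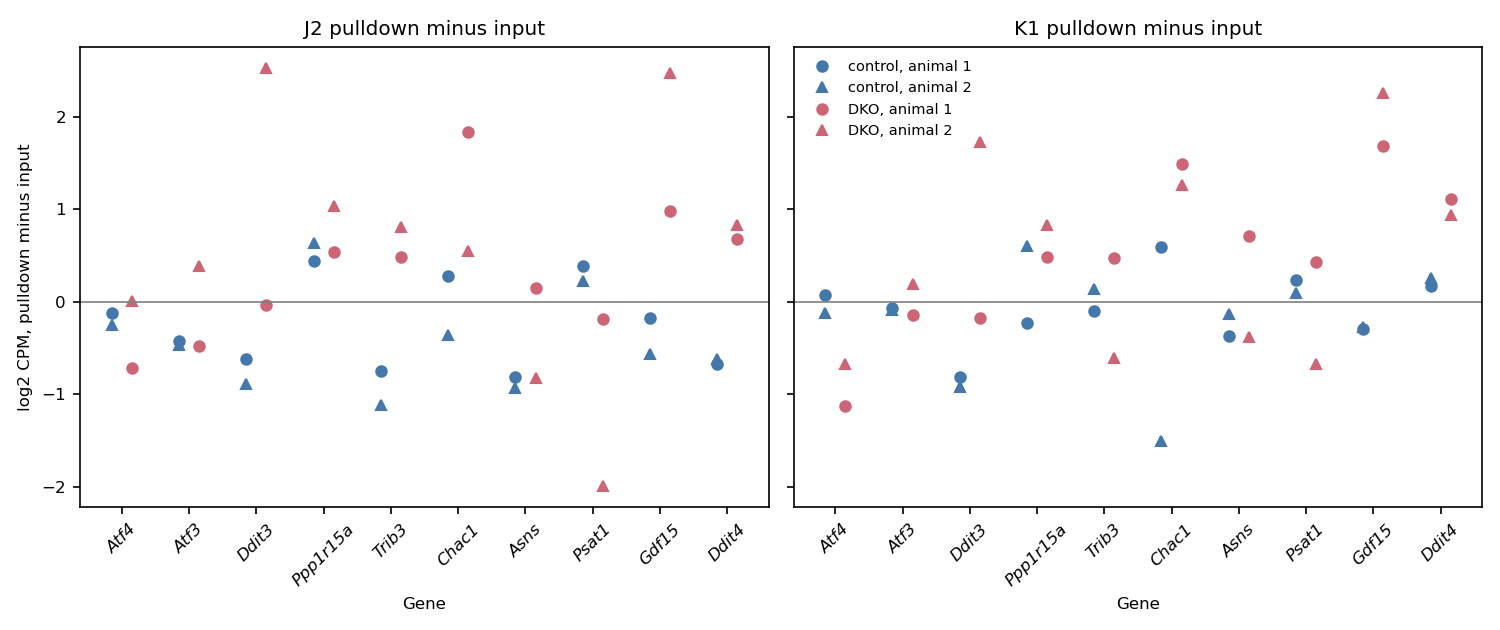
Log2 CPM in the pulldown minus log2 CPM in the input of the same animal, for J2 (left) and K1 (right), with blue control and red DKO animals (circle animal 1, triangle animal 2). The DKO points of Gdf15 lie at 0.98 and 2.47 in J2 and at 1.68 and 2.25 in K1, above control points between -0.57 and -0.17, and Ddit3 is split between DKO animals.

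The difference of enrichment between genotypes was tested as an interaction. For K1 it was called for 1 of the 10 genes, Gdf15, against 5.47% of 15908 genes (1.37% higher, 4.1% lower). Its K1 level relative to input was -0.29 and -0.27 in the control animals and 1.68 and 2.25 in the DKO animals, and the change was 2.34 (SE 0.54, adjusted p = 0.0374, 95% interval 1.15 to 3.53). The median change of all genes was -0.20. The call was lost without control animal 1 (2.26, adjusted p = 0.584), without control animal 2 (2.29, adjusted p = 0.355) and without DKO animal 2 (2.05, adjusted p = 0.0599), while the value stayed between 2.05 and 2.59. It was also lost in the fit of the 12 libraries (2.33, adjusted p = 0.129) and after thinning (4.74, adjusted p = 0.0600), which lowers the 11 and 18 reads of the control K1 libraries further. Among all calls 25.1% were higher, 39.2% with RLE size factors and 13.2% with library totals. In K1 both DKO animals lay above both control animals for 4 of the 10 genes, and for 20.3% of all genes tested. They lay below for 1 of the 10, Atf4, and for 38.2% of all genes. Atf4 stood at 0.07 and -0.12 in control and at -1.13 and -0.68 in DKO, a change of -0.89 (SE 0.33, adjusted p = 0.136).

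For J2 edgeR called 0 of the 10, against 2.71% of 15923 genes (0.772% higher, 1.94% lower), with 4 under an unadjusted p of 0.05 (Ddit3, Trib3, Gdf15 and Ddit4) as had 4120 of the 15923 genes, and DESeq2 called 3 (Trib3, Gdf15 and Ddit4) among 2018 genes in all. The share of higher calls among all calls was 28.5%, and 10.5% with library totals. Gdf15 had the J2 values -0.17 and -0.57 in control and 0.98 and 2.47 in DKO, a change of 2.37 (SE 0.71, adjusted p = 0.0951). Trib3 stood at -0.75 and -1.11 in control and 0.48 and 0.80 in DKO, a change of 1.63 (SE 0.40, adjusted p = 0.0683). Ddit4 stood at -0.68 and -0.62 against 0.68 and 0.83, a change of 1.44 (SE 0.40, adjusted p = 0.0824). In these 3 genes, and in Chac1 and Ddit3, both DKO animals lay above both control animals, an order found for 26.9% of all genes tested. The opposite order, found for 33.7% of all genes tested, held for Psat1. Psat1 stood at 0.38 and 0.23 in control and at -0.18 and -1.99 in DKO, a change of -1.38 (SE 0.60, adjusted p = 0.195). Without the filter on low counts it was called lower in edgeR (-1.69, adjusted p = 0.0401). Ddit3 had the largest estimate of the 10 in J2, 2.43 (SE 0.82, adjusted p = 0.123), from -0.62 and -0.89 in control and -0.04 and 2.53 in DKO. In K1 its change of 1.81 (SE 0.58, adjusted p = 0.0938) came from -0.82 and -0.93 in the control animals against -0.17 and 1.73 in DKO, and with the animal as a block it was called (1.71, adjusted p = 0.0330). Without DKO animal 1 it was 3.34 in J2 and 2.59 in K1, with calls in both. The exons of Ddit3 overlap those of Mars on the opposite strand, and 105 bases (10.8%) of its longest transcript are shared with a second annotation entry of the same name, so that its counts, made without strand, are less certain. The other 9 genes had no near-identical copy, and of these only Ppp1r15a shares exonic bases with another gene, Tulp2, on the opposite strand.

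The wider pathway was described in DKO input through 7 gene lists, set side by side in the plot of gene lists. The counts of each list are to be read against the 18.8% of all genes that rose and the 17.1% that fell. Gene symbols in these lists, as those of the 10 genes, follow the files' Ensembl identifiers. Among the kinases of eIF2, Eif2ak2 (PKR) rose, from 42.9 and 32.3 CPM in control to 131 and 103 CPM in DKO, by 1.68 (SE 0.18, adjusted p = 0.000618). The other kinases did not pass: the log2 fold changes were 0.30 for Eif2ak4 (adjusted p = 0.234), -0.02 for Eif2ak3 (adjusted p = 0.926) and -0.22 for Eif2ak1 (adjusted p = 0.167). Of the 17 genes of the kinases, eIF2, its exchange factor eIF2B and cofactors, 4 rose and 1 fell, rises near the share of all genes. Oma1, the mitochondrial protease that relays mitochondrial stress to HRI, rose from 13.8 and 14.2 CPM to 30.1 and 30.9 CPM, by 1.16 (SE 0.13, adjusted p = 0.000727). Dele1, the protein that OMA1 cleaves in that relay, fell by 0.72 (SE 0.19, adjusted p = 0.0224), a call that was lost without control animal 2 (-0.60, adjusted p = 0.135) and without DKO animal 1 (-0.52, adjusted p = 0.0512). Eif2b2, a subunit of eIF2B, rose by 0.52 (SE 0.15, adjusted p = 0.0325), which was lost without either control animal (0.60 and 0.43, adjusted p of 0.102 and 0.289), without DKO animal 2 (0.44, adjusted p = 0.0575), in DESeq2 (0.53, adjusted p = 0.0930) and with library totals (0.39, adjusted p = 0.155). Ppp1r15b, the constitutive partner of the eIF2 phosphatase, was the most abundant gene of the list that did not pass, at 0.19 (SE 0.13, adjusted p = 0.296).

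Other regulators linked to ATF4 gave 5 rises and no fall among 12 tested, with a median of 0.83. Eif4ebp1, which restrains cap-dependent translation, rose from 8.90 and 9.14 CPM to 43.2 and 33.8 CPM, by 2.13 (SE 0.17, adjusted p = 0.000200). Sesn2, which signals lack of leucine to mTORC1, rose from 13.3 and 12.7 CPM to 31.3 and 31.9 CPM, by 1.32 (SE 0.13, adjusted p = 0.000456). Tnfrsf10b, the death receptor of TRAIL, rose by 1.09 (SE 0.17, adjusted p = 0.00275). These 3 calls held without any single animal. Nupr1, a stress-induced chromatin protein, rose by 0.91 (SE 0.21, adjusted p = 0.0131) and lost its call without control animal 1 (0.91, adjusted p = 0.0560) and without control animal 2 (0.88, adjusted p = 0.0707). The abundant autophagy receptor Sqstm1 did not pass, at 0.47 (SE 0.17, adjusted p = 0.0639), but was called with the replicate number as a block (0.45, adjusted p = 0.0430), without the filter on low counts (0.45, adjusted p = 0.00935) and without DKO animal 2 (0.67, adjusted p = 0.00501).

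Amino acid transporters gave 3 rises and 1 fall among 8 tested, with a median of 0.26. Slc7a5, the light chain of the leucine transporter LAT1, rose from 7.79 and 6.62 CPM to 19.1 and 22.9 CPM, by 1.59 (SE 0.18, adjusted p = 0.000797). Slc1a4, a transporter of alanine and serine, rose by 0.89 (SE 0.26, adjusted p = 0.0314), which was lost without control animal 1 (1.00, adjusted p = 0.0541), control animal 2 (0.76, adjusted p = 0.157) and DKO animal 2 (0.62, adjusted p = 0.0778), in DESeq2 (0.89, adjusted p = 0.0611) and with library totals (0.76, adjusted p = 0.0902). Slc7a1, a transporter of cationic amino acids, fell by 0.47 (SE 0.14, adjusted p = 0.0346), lost without control animal 1 (-0.36, adjusted p = 0.239), without DKO animal 1 (-0.36, adjusted p = 0.0882) and in DESeq2 (-0.46, adjusted p = 0.0578). Slc3a2, the heavy chain that LAT1 needs, did not pass at -0.38 (SE 0.14, adjusted p = 0.0750) and was called lower without DKO animal 1 (-0.53, adjusted p = 0.0174), with library totals (-0.53, adjusted p = 0.0112) and without the filter on low counts (-0.40, adjusted p = 0.0249). The third riser, Slc7a11, which imports cystine, fell outside the rule for named genes through its low counts and is named after its values were seen: it had 3 and 3 reads in control and 43 and 35 in DKO, a log2 fold change of 3.74 (SE 0.44, adjusted p = 0.000838). Slc7a11 passed the filter only through its DKO libraries, so that it could enter the test as a rise only.

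Genes of serine, one-carbon, proline and cysteine synthesis went in both directions, with 2 rises and 3 falls among 11 tested and a median of -0.47, on the other side of 0 from Asns and Psat1. Aldh18a1, which starts proline synthesis, fell from 160 and 197 CPM to 36.9 and 49.3 CPM, by 2.01 (SE 0.18, adjusted p = 0.000327). Pck2, the mitochondrial PEP carboxykinase, fell from 16.0 and 15.2 CPM to 6.99 and 5.94 CPM, by 1.23 (SE 0.18, adjusted p = 0.00223). Cth, which makes cysteine from cystathionine, fell by 0.64 (SE 0.13, adjusted p = 0.00734), lost without control animal 2 (-0.53, adjusted p = 0.0658). Phgdh, the first enzyme of serine synthesis, rose by 0.81 (SE 0.26, adjusted p = 0.0484), lost without control animal 2 (0.61, adjusted p = 0.173), without DKO animal 2 (0.42, adjusted p = 0.168) and with library totals (0.69, adjusted p = 0.130). Shmt2, the mitochondrial serine hydroxymethyltransferase, did not pass at -0.47 (SE 0.22, adjusted p = 0.136) and was called lower without DKO animal 2 (-0.85, adjusted p = 0.00821) and without the filter on low counts (-0.48, adjusted p = 0.0252).

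Cytosolic aminoacyl-tRNA synthetases, which charge tRNAs and are known targets of ATF4, gave 3 rises and no fall among 20, rises not above the 18.8% of all genes, with a median of 0.10. Aars, Wars and Hars rose by 0.64, 0.60 and 0.60 with adjusted p of 0.00629, 0.00935 and 0.0197. Without control animal 2 the values were 0.55, 0.50 and 0.63 with adjusted p of 0.0693, 0.107 and 0.125, and Hars was also lost without control animal 1 (0.56, adjusted p = 0.157), in DESeq2 (0.61, adjusted p = 0.0564) and with library totals (0.47, adjusted p = 0.0962). Nars did not pass at -0.29 (adjusted p = 0.113) and was called lower without DKO animal 2 (-0.39, adjusted p = 0.0390). Chaperones of the endoplasmic reticulum and targets of IRE1 and ATF6, which mark the arms of the unfolded protein response other than PERK, gave 5 rises and 1 fall among 16, with a median of 0.24. The changes were small: Creld2 rose by 0.70 (adjusted p = 0.0108), Dnajb9 by 0.60 (adjusted p = 0.0122) and Xbp1 by 0.50 (adjusted p = 0.0178), and Dnajc3 fell by 0.49 (adjusted p = 0.0205). Without control animal 1 the first 3 were at 0.55, 0.58 and 0.55 with adjusted p of 0.111, 0.0654 and 0.0992, and without control animal 2 Xbp1 was at 0.45 (adjusted p = 0.206) and Dnajc3 at -0.42 (adjusted p = 0.161). Calr, the most abundant gene of the list that did not pass, was at 0.21 (adjusted p = 0.243).

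Atf3, Ppp1r15a and Ddit4 are also known to rise when a tissue is taken apart, and a list of 15 immediate-early and heat shock genes of that kind gave 9 rises and 1 fall in DKO input, with a median of 0.74. Socs3, the feedback inhibitor of STAT3 signalling, rose from 65.9 and 56.3 CPM to 418 and 296 CPM, by 2.59 (SE 0.20, adjusted p = 0.000182). The heat shock gene Hspa1b rose from 2.07 and 1.65 CPM to 10.2 and 7.12 CPM, by 2.25 (SE 0.29, adjusted p = 0.00120), and is nearly identical in sequence to Hspa1a, so that their reads are hard to separate. Egr1 rose by 1.56 (SE 0.14, adjusted p = 0.000310), Fosb fell by 1.64 (SE 0.36, adjusted p = 0.0112), and Jun was at 0.12 (adjusted p = 0.603; -0.023 with library totals in place of TMM). The part of tissue handling in the rise of the stress response genes was not tested. In the fit of the 12 libraries, where 1675 of 16582 genes were called, the named genes of these lists that were still called were Eif2ak2, Oma1, Eif4ebp1, Sesn2, Tnfrsf10b, Slc7a5, Aldh18a1, Socs3 and Hspa1b, and the other 17 lost their calls.

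**Figure D4:**
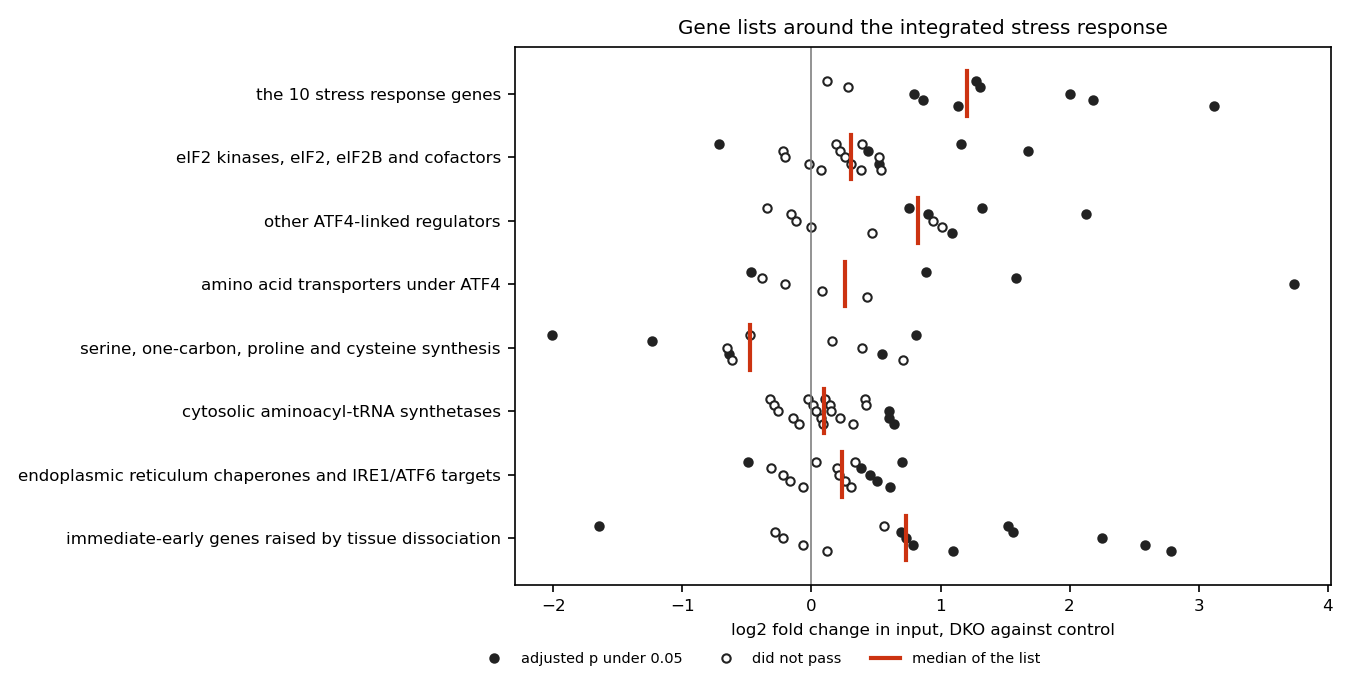
Log2 fold change in DKO input against control for the 10 stress response genes and 7 neighbouring gene lists; each point is a gene, filled where the adjusted p is under 0.05, and the red bar is the median of the list. The median of the 10 genes is 1.21, those of the other lists lie between -0.47 and 0.83, and all 10 points of the stress response genes lie above 0. Ddit3 was below 0 with library totals in place of TMM (-0.021) and without DKO animal 1 (-0.066).

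In the pulldowns the lists gave the following counts; J2 and K1 were not tested against each other. The share of all genes called was 6.02% higher and 6.16% lower in J2, and 13.2% higher and 13.9% lower in K1. Of the 17 eIF2 kinase and cofactor genes no gene rose and 1 fell in J2, and 3 rose and 4 fell in K1. Eif2ak2 was at 0.90 in J2 (SE 0.30, adjusted p = 0.101) and rose by 0.93 in K1 (SE 0.27, adjusted p = 0.0396). Of the other regulators 3 of 12 rose and 1 fell in J2, and 7 rose and 1 fell in K1. Sesn2 rose by 1.53 in J2 (SE 0.33, adjusted p = 0.0448) and by 1.60 in K1 (SE 0.25, adjusted p = 0.00631). Of the immediate-early genes 3 of 15 rose in J2 and 9 in K1, with no falls. Among the chaperones 2 of 16 rose and 1 fell in J2, and 6 rose and 1 fell in K1. None of 8 transporters was called in J2, and 3 of 7 rose in K1 with no falls. Among genes of amino acid synthesis 1 of 10 rose in J2 with no falls, and 1 rose and 2 fell in K1. The synthetases had medians of 0.95 in J2 and 0.56 in K1, with 1 and 3 rises among 20. The medians were 1.56 and 1.48 for the immediate-early genes and 2.43 and 1.84 for the 10 stress response genes. In both pulldowns the median of the other regulators also lay between those of the synthetases and of the 10 genes.

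Across the 12 libraries most pairs of the 10 genes varied together, with the difference between genotypes included. Of the 45 pairs, 37 had a positive correlation of log2 CPM, with a median r of 0.70 and a range of -0.40 to 0.96; the libraries share animals, and depth follows genotype, so these values are descriptions. The highest was that of Ppp1r15a with Gdf15 (r = 0.96). The correlation of a gene with the mean of the 10 standardised profiles was 0.98 for Atf3, 0.94 for Gdf15, 0.93 for Ppp1r15a and 0.91 for Ddit4, and 0.48 for Psat1 and -0.10 for Atf4, the lowest. The mean profile was -0.46 and -0.59 standard deviations in control input, -0.76 and -1.08 in control J2 and -0.52 and -0.75 in control K1. In DKO it was 0.61 and 0.61 in input, 0.64 and 0.84 in J2 and 0.77 and 0.69 in K1, so that each DKO library lay above each control library. Among 9369 other genes with enough counts, the 5 with the profile most like this mean were Slc25a4, a mitochondrial ADP/ATP carrier (r = 0.99), Oas1g, of the oligoadenylate synthetases that sense double-stranded RNA (r = 0.99), Sp100, a nuclear body protein induced by interferon (r = 0.98), Plk3, a polo-like kinase (r = 0.98), and Ttc39a (r = 0.98). In DKO input they rose by 3.13, 3.4, 1.77, 2.51 and 0.92. The 10 genes had shorter transcripts than the genes tested in input (median 2000 against 3053 bases for the longest transcript) and a higher GC content (median 55.6% against 49.4%).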

How the data were processed

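RNA was sequenced from input and from J2 and K1 pulldowns of the same 4 animals. The deposited files hold raw read counts per gene, made by the authors without regard to strand per the labels. STAR 2.7.10b, SAMtools 1.17, UMI-tools 1.1.4, HTSeq 2.0.2, DESeq2 1.40.1, edgeR 3.42.2, deepTools 3.5.2 and FastQC are named in the submitters' processing notes, with no role or order, and so are the builds mm10 and GRCm38.p4. Rows that name no gene (18.7% to 61.2% of the reads listed per library) were left out. They held 32.0% to 61.2% in DKO pulldowns, 18.7% to 24.8% in control pulldowns and 37.2% to 38.2% in input. Reads aligned to more than 1 place came to 15.8% to 46.7% in DKO pulldowns and 5.54% to 6.56% in control pulldowns. The log2 CPM of the 2 libraries of a group correlated at 0.90 in DKO J2 and 0.93 in DKO K1. In the other groups this correlation was 0.98 to 0.99. The sources used here describe no spike-in, so levels are relative within a library.

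The quasi-likelihood test of edgeR (version 4.0.16, under R version 4.3.3) was run on these counts after TMM scaling. Genes had to pass filterByExpr at a minimum of 10 reads, and p-values were adjusted by the Benjamini-Hochberg method over all genes tested. Genotypes were compared within each kind of library (4 libraries, 2 residual degrees of freedom), and pulldown against input, with its change between genotypes, in fits of 8 libraries (4 residual degrees of freedom). These fits held the group alone, and the animal entered as a block in the alternatives only. Log2 CPM had a prior count of 2. Alternatives were DESeq2 1.42.0, RLE factors, library totals, no filter, 1 fit of the 12 libraries, thinned counts, replicate blocks and each animal left out. The scripts were tested on simulated data. Libraries of 1 animal carry its code and deviated together (r of 0.21 to 0.30 over genes), while equal numbers across genotypes did not (0.026 to -0.097), so that only the animal pairs libraries. Names came from the GENCODE M21 annotation and promoter windows from RefSeq. The 10 genes and the lists were chosen with earlier results of these data known. Of each list, up to 4 called genes of largest change with a mean count of at least 50, the most abundant gene that did not pass, and the eIF2 kinases are named. The value of 1 marker gene is not reported here.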

Additional observations from a re-analysis of the deposited data

Results flagged for a closer look

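The enrichment of Gdf15 in K1 over input differed between the genotypes by the test of that difference itself, with a change of 2.34 on the log2 scale in edgeR (SE 0.54, adjusted p = 0.0374). The log2 level in K1 minus input was higher in both DKO animals (1.68 and 2.25) than in both control animals (-0.29 and -0.27). The call was lost when either control animal or DKO animal 2 was left out, in the fit of the 12 libraries and after thinning.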

How the results depend on the processing

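Of 1386 fold changes computed under the alternatives, 1154 kept their direction and their side of the threshold, 95 lost and 73 gained a call, and 64 changed sign, none of them of a gene called in the reported fit. The causes of these changes were not tested. With 2 animals a group, leaving out 1 leaves an arm with a single sample, which is assumed to vary like the others, and the low reads of Chac1 and Gdf15 and the shallow DKO pulldowns limit precision.

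With library totals in place of TMM the median of all genes moved to -0.13 in input and -0.39 in K1, where the medians of the 10 genes were 1.08 and 1.48, to -0.44 and -0.26 for J2 over input in control and DKO, to -0.23 and -0.48 for K1 over input, and to -0.30 for the change of K1 enrichment. Signs changed in input for Ddit3 (-0.021) and Jun (-0.023), for J2 over input in control Chac1 (-0.29) and Psat1 (-0.047) and in DKO Atf3 (-0.17), and for K1 over input in control Ppp1r15a (-0.13), Chac1 (-0.18), Psat1 (-0.13) and Ddit4 (-0.099) and in DKO Trib3 (-0.29) and Asns (-0.24). The change of enrichment was 0.024 for Atf4 in J2 and -0.0041 for Trib3 in K1. The count of the 10 genes called was 6 in input, 3 in J2, 2 for J2 over input in control and 0 in DKO. Over all genes these fits called 5074 of 15088 in input and 1364 of 13181 in J2. For J2 over input they called 4292 of 15923 in control and 3825 in DKO. DESeq2 gave Atf3 -0.038 for J2 over input in DKO, and Ppp1r15a -0.016, Chac1 -0.11 and Psat1 -0.021 for K1 over input in control; it called 2 genes for J2 over input in DKO, 3 for the change in J2 and 2 for that in K1. RLE factors gave -0.037, and -0.015, -0.069 and -0.020, for the same genes. Over all genes DESeq2 called 4683 of 15923 for J2 over input in DKO. It called 2018 of 15923 for the change in J2 and 1253 of 15908 for that in K1.

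Without the filter on low counts Atf4 was at -0.021 in J2, Atf3 at -0.19 for J2 over input in DKO and the change of Ppp1r15a in J2 at -0.052. Of the 10 genes 0 and 3 were called for J2 over input in control and DKO, 1 and 5 for K1 over input, and 3 and 2 for the changes in J2 and K1. Over all genes, 5823 and 5464 of 29004 were called for J2 over input, and 7450 and 6366 of 28702 for K1 over input. For the changes it was 2453 of 29004 in J2 and 1763 of 28702 in K1. The fit of 12 libraries gave 0.036 for Trib3 in control and 0.024 for Atf3 in DKO for K1 over input, and called 4 of the 10 genes in input, 8 in J2, 0 for J2 over input in control and 0 for the change in K1. Of all 16582 genes it called 1675, 5984, 4919 and 59 in these comparisons. After thinning, Psat1 was at 0.078 in J2, Chac1 at -0.14 for J2 over input and -1.72 for K1 over input in control, Ddit4 at -0.084 for the latter, and 0 of the 10 genes were called for the change in K1. Of all genes 246 of 11312 were called for that change. With the animal as a replicate block, Atf3 was at -0.0085 for J2 over input in DKO, Chac1 at -0.21 and Trib3 at -0.028 for K1 over input in control and DKO, and 1 of the 10 genes was called for K1 over input in control and 2 for the change in K1. Of all 15908 genes these fits called 7288 and 1912. With the replicate number as a block between genotypes, which does not pair the animals, 7 genes were called in J2. The replicate blocks changed no call of the 10 genes or of the named genes other than those given with their values in the text above.

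Leaving out each animal in turn, the values that changed sign ranged as follows. In input they ran from -0.066 to 0.29 for Ddit3, -0.068 to 0.29 for Jun and -0.20 to 0.14 for Eif2ak3. In J2 they ran from -0.16 to 0.44 for Atf4 and -0.70 to 0.28 for Psat1. For J2 over input they ran from -0.48 to 0.35 for Chac1 in control, and in DKO from -0.45 to 0.28 for Atf3, -0.015 to 2.44 for Ddit3 and -0.94 to 0.18 for Asns. For K1 over input in control they ran from -0.21 to 0.018 for Atf4, -0.30 to 0.54 for Ppp1r15a, -0.16 to 0.045 for Trib3 and -2.83 to 0.64 for Chac1, and in DKO from -0.23 to 0.039 for Atf3, -0.26 to 1.59 for Ddit3, -0.77 to 0.39 for Trib3, -0.54 to 0.63 for Asns and -0.84 to 0.35 for Psat1. For the change in J2 they ran from -0.52 to 0.20 for Atf4, -0.020 to 0.85 for Atf3 and -0.0075 to 0.49 for Ppp1r15a, and for that in K1 from -0.089 to 0.21 for Atf3, -0.70 to 0.44 for Trib3, -0.17 to 0.97 for Asns and -0.93 to 0.24 for Psat1. The count of the 10 genes called ranged from 1 to 8 in J2, 4 to 9 in K1, 0 to 5 for J2 over input in control and in DKO, 0 to 1 and 1 to 3 for K1 over input, 0 to 6 for the change in J2 and 0 to 2 for that in K1.

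The count of all genes called moved by more than 1.5 times in these cases. In input it was 5421 and in the fit of 12 libraries 1675. In J2 it was 1606, with 2884 in DESeq2, 4273 without the filter, 5984 in the fit of 12 libraries and 177 to 8635 without an animal; in K1 it was 3487, with 1149 to 5819 without an animal. For J2 over input thinning lowered it from 4747 to 2634 in control and from 4087 to 2325 in DKO, and leaving out an animal gave 0 to 10139 and 337 to 7791. For K1 over input thinning lowered it from 6324 to 3033 and from 5659 to 3499, and leaving out an animal gave 281 to 9189 and 3005 to 5970. For the change in J2 it was 432, with 2018 in DESeq2, 669 with library totals, 2453 without the filter, 898 in the fit of 12 libraries, 160 thinned, 0 with the animal as a block and 0 to 6990 without an animal. For the change in K1 it was 870, with 523 with RLE factors, 1763 without the filter, 59 in the fit of 12 libraries, 246 thinned, 1912 with the animal as a block and 0 to 3802 without an animal.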
